A study of Mus musculus with 9 samples.

Results

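The Bcl2 family survival and death genes followed here are Bcl2, Bcl2l1, Mcl1, Bcl2l11, Bbc3, Pmaip1, Bax and Bak1. The set is a list of 8 names out of 21631 protein-coding genes, and the rule that lists them uses no measured value. A contact was counted for a gene when either of its anchors overlapped the gene body or the 5 kb on each side of it and the anchor midpoints lay at least 10 kb apart. HiChIP, which couples chromosome conformation capture to immunoprecipitation, had been run on sorted live CD4+ CD8+ (double-positive) thymocytes. The groups were H3K27ac in NOD/ShiLtJ (NOD) mice with 2 libraries, H3K27ac in C57BL/6J (BL6) mice with 2, Smc1 in NOD mice with 2, Smc1 in F1 mice of a NOD/ShiLtJ and C57BL/6 cross with 1, and Smc1 in BL6 mice with 2. H3K27ac marks active promoters and enhancers, and Smc1 is a subunit of cohesin, the ring complex that holds chromatin loops. No mouse carried a stated transgene or treatment, and ages and numbers of pooled mice were not given in the sources used here.

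The labels make each strain's pair of Smc1 libraries technical repeats of 1 biological replicate, so Smc1 p-values and intervals describe the spread between such repeats. The H3K27ac libraries are numbered as biological replicates, and their titles name Smc1 against the antibody field, which was followed. Per the table names, reads of NOD mice were placed on a NOD genome and the positions then moved to BL6 coordinates, so strain and mapping genome cannot be told apart. A stronger contact in some cells and a weaker one in all cells cannot be told apart either, since each library is a bulk preparation.

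BCL-2 family proteins decide whether the outer mitochondrial membrane stays closed. BCL-2, BCL-XL (from Bcl2l1) and MCL-1 hold cells alive by binding their relatives, the BH3-only proteins BIM (from Bcl2l11), PUMA (from Bbc3) and NOXA (from Pmaip1) bind and block those survival proteins, and BAX and BAK open the membrane and release cytochrome c. Double-positive thymocytes are known to depend on BCL-XL and MCL-1 for survival, to hold little BCL-2, and to use BIM when self-reactive cells are deleted.

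The tables held 381010 and 497751 used read pairs for H3K27ac in NOD 1 and NOD 2 and 440901 and 1203808 in BL6 1 and BL6 2. Smc1 tables held 1663366 and 1484554 in NOD 1 and NOD 2, 765188 for the F1 library on the BL6 genome (791859 on the NOD genome), and 1899789 and 2620662 in BL6 1 and BL6 2. Levels below are in ppm, the read pairs of a gene per 1000000 used read pairs of the same table. The 12 marker genes of double-positive thymocytes had listed contacts in all 4 H3K27ac libraries, summing to between 1354 and 2758 ppm, and 10 to 12 of them in the 4 Smc1 libraries, summing to between 468 and 1475 ppm. B cell markers were also listed, 7 or 8 of 8 with sums of 1103 to 2013 ppm over all tables, so being listed did not separate these lineages. Per kb of gene window, double-positive markers had the higher mean in every H3K27ac library, 2.48 to 6.26 ppm against 1.71 to 2.25 for B cells. By the median per kb that order was reversed in H3K27ac BL6 2, at 1.45 against 1.92. Myeloid and thymic epithelium medians there, 2.16 and 1.94, were also higher than the double-positive median. In Smc1 the order of the double-positive and B cell means was mixed. Myeloid and thymic epithelium markers were also listed at 7 or 8 of 8, and erythroid markers at 4 to 6 of 8. A contact under 2 read pairs or over a q-value of 0.05 was not listed, and a value of 0 below means none listed.

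The start sites of 4 genes are shown because Bcl2 and Bcl2l1 were anchored there with both antibodies, and Bbc3 and Bax mainly with H3K27ac. Each line gives the 250 bases before a RefSeq start site (GRCm38.p6), read 5′ to 3′ along the gene. Capitals mark GATC, the site of MboI, the enzyme that fragmented the chromatin.
Bcl2, chr1:106714291-106714540, minus strand: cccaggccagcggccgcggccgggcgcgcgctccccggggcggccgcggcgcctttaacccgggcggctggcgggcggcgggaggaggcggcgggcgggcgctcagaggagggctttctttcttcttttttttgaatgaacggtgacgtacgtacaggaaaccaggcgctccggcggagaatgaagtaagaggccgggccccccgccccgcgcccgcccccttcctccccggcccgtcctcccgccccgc
Bcl2l1, chr2:152830718-152830967, minus strand: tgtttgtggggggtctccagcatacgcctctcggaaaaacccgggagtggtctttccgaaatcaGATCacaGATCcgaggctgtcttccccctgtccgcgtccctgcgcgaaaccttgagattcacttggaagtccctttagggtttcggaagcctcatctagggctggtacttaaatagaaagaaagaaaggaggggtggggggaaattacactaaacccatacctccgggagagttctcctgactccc
Bbc3, chr7:16309333-16309582, plus strand: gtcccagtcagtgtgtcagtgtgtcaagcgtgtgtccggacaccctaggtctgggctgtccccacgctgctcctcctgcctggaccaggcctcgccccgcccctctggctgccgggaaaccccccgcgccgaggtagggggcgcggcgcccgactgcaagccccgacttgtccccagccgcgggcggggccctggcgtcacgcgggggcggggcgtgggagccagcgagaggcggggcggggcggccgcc
Bax, chr7:45466899-45467148, minus strand: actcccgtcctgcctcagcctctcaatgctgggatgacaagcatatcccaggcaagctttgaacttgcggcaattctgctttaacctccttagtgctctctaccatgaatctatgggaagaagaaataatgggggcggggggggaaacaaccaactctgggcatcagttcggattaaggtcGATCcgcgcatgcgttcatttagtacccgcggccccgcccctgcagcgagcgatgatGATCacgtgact
The Bcl2 and Bbc3 stretches shown hold no GATC, with 74.8% and 76.4% G or C, and the Bcl2l1 and Bax stretches shown hold 2 GATC each, with 53.2% and 54.0% G or C. The promoter table has 1 start site for Bcl2 and Bax but 3 each for Bbc3 and Bcl2l1, of which 1 is shown. The other Bbc3 stretches, with the same anchors, hold 1 GATC each, and the other Bcl2l1 stretches hold 0, 1 of them with anchors in the same libraries, so the GATC count depends on the start site taken. Of 32851 such stretches in the promoter table, 41.9% hold a GATC, and their median is 52.4% G or C. The GC box GGGCGG, searched on both strands, occurs 7 times before Bcl2, 5 times before Bbc3, 2 times before Bax and 0 times before Bcl2l1, against 32.7% of all stretches with at least 1. Pmaip1 has no entry in the promoter table.

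For start sites, the anchors of all listed contacts were taken, those under 10 kb included. Anchors lay within 500 bases of a start site of Bcl2 and of Bcl2l1 in all 4 H3K27ac and all 4 Smc1 libraries, and in both F1 tables. For Bbc3 such an anchor was listed in all 4 H3K27ac libraries and in 0 of 4 Smc1 libraries. Bax had it in all 4 H3K27ac libraries and in 1 Smc1 library, NOD 1. Among 17274 genes with a start site, 3.98% had all 4 and all 4 like Bcl2 and Bcl2l1, 3.50% had all 4 and 0 like Bbc3, and 6.45% had all 4 H3K27ac with at most 1 Smc1 library like Bbc3 and Bax. The start sites of Bcl2 and Bcl2l1 were thus listed with either antibody and those of Bbc3 and Bax mainly with H3K27ac, and the shares show how common each pattern is among all genes.

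At the Bbc3 start site the anchor held 814 reads in NOD 1, 1504 in NOD 2, 902 in BL6 1 and 991 in BL6 2 with H3K27ac. Contacts of that anchor made up 3 of 5 read pairs in NOD 1, 4 of 25 in NOD 2, 20 of 26 in BL6 1 and 10 of 43 in BL6 2. The strains overlapped in both readings, and only the BL6 1 and NOD 1 tables drew most of their Bbc3 pairs from the start site. The Bax anchor held 277 and 544 reads in NOD 1 and NOD 2 and 321 and 476 in BL6 1 and BL6 2 with H3K27ac, and 198 reads in the Smc1 NOD 1 library.

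The Bcl2 start anchor held 578 and 1666 reads in H3K27ac NOD 1 and NOD 2 and 700 and 1047 in H3K27ac BL6 1 and BL6 2. With Smc1 it held 272 and 312 reads in NOD, 239 in F1 on the BL6 genome (244 on the NOD genome), and 237 and 402 in BL6. Every H3K27ac count was above every Smc1 count at Bcl2. Anchor reads were not scaled for depth, and the part of depth in this order was not tested. At Bcl2l1 the order was mixed: 632 and 1392 reads in H3K27ac NOD, 535 and 1038 in H3K27ac BL6, 1067 and 1032 in Smc1 NOD, 779 and 777 in F1 on the BL6 and NOD genomes, and 793 and 583 in Smc1 BL6.

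Mcl1, Bcl2l11 and Bak1 shared another pattern. Each had a start-site anchor in H3K27ac NOD 2 and BL6 2 and in neither NOD 1 nor BL6 1. Mcl1 held 1555 reads there in NOD 2 and 1047 in BL6 2, Bcl2l11 456 and 791, and Bak1 846 and 610. The libraries numbered 2 were the deeper ones of each strain, and a start-site anchor was listed for 43.7% of all genes in NOD 2 and 58.5% in BL6 2, against 36.7% in NOD 1 and 30.2% in BL6 1, so these absences moved with the library and not with the strain. The part of depth in them was not tested. With Smc1, the start sites of Bcl2l11 and Bak1 were anchors in NOD 1 (562 and 211 reads). They were not anchors in its technical repeat NOD 2, nor in either BL6 library. That of Bcl2l11 was also an anchor in F1 (717 reads on the BL6 genome), and that of Mcl1 in no Smc1 table.

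**Figure D1:**
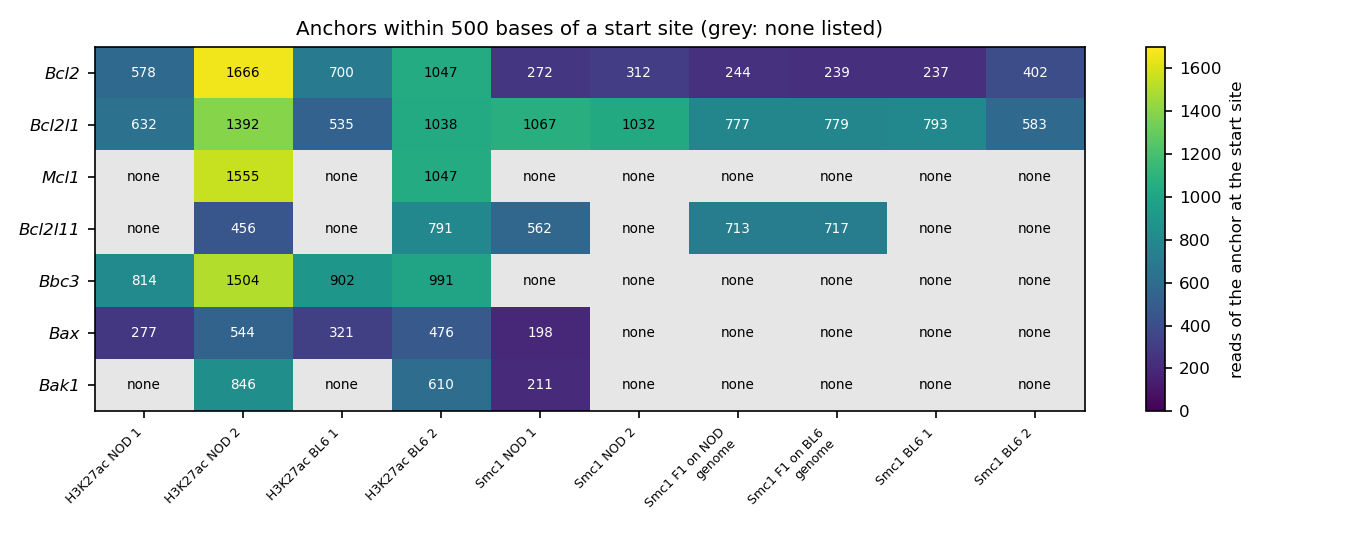
Reads of the anchor at the start site of 7 members (rows) in each table (columns), in reads not scaled for depth, grey where no anchor was listed. Anchors of contacts under 10 kb are included. Bcl2 and Bcl2l1 have a value in every column, Bbc3 in the 4 H3K27ac columns only, and Mcl1, Bcl2l11 and Bak1 within H3K27ac only in the libraries numbered 2.

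Per kb of counted window the survival gene Bcl2l1 led in H3K27ac, with 2.53 ± 1.62 ppm per kb (SD, n = 4 libraries), followed by Bak1 at 2.14 ± 1.00, Bbc3 at 1.98 ± 1.00, Bcl2l11 at 1.90 ± 0.47, Bcl2 at 1.71 ± 0.31, Bax at 1.41 ± 0.48, Pmaip1 at 0.74 ± 0.63 and Mcl1 at 0.58 ± 0.51. In Smc1 the BH3-only gene Bcl2l11 led with 2.42 ± 0.78, followed by Bcl2l1 at 1.62 ± 0.62, Bax at 1.49 ± 1.23, Bak1 at 1.47 ± 0.62, Bcl2 at 1.25 ± 0.19, Pmaip1 at 1.00 ± 0.27, Bbc3 at 0.79 ± 0.36 and Mcl1 at 0.52 ± 0.22 (SD, n = 4 libraries each). No neighbouring pair in either order was separated, since the ranges over libraries overlapped at every step. The median over all genes was 0.752 to 1.15 in the H3K27ac libraries and 0.823 to 0.994 in the Smc1 libraries. Mcl1 and Pmaip1 stood last in H3K27ac, and Mcl1 last in Smc1.

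**Figure D2:**
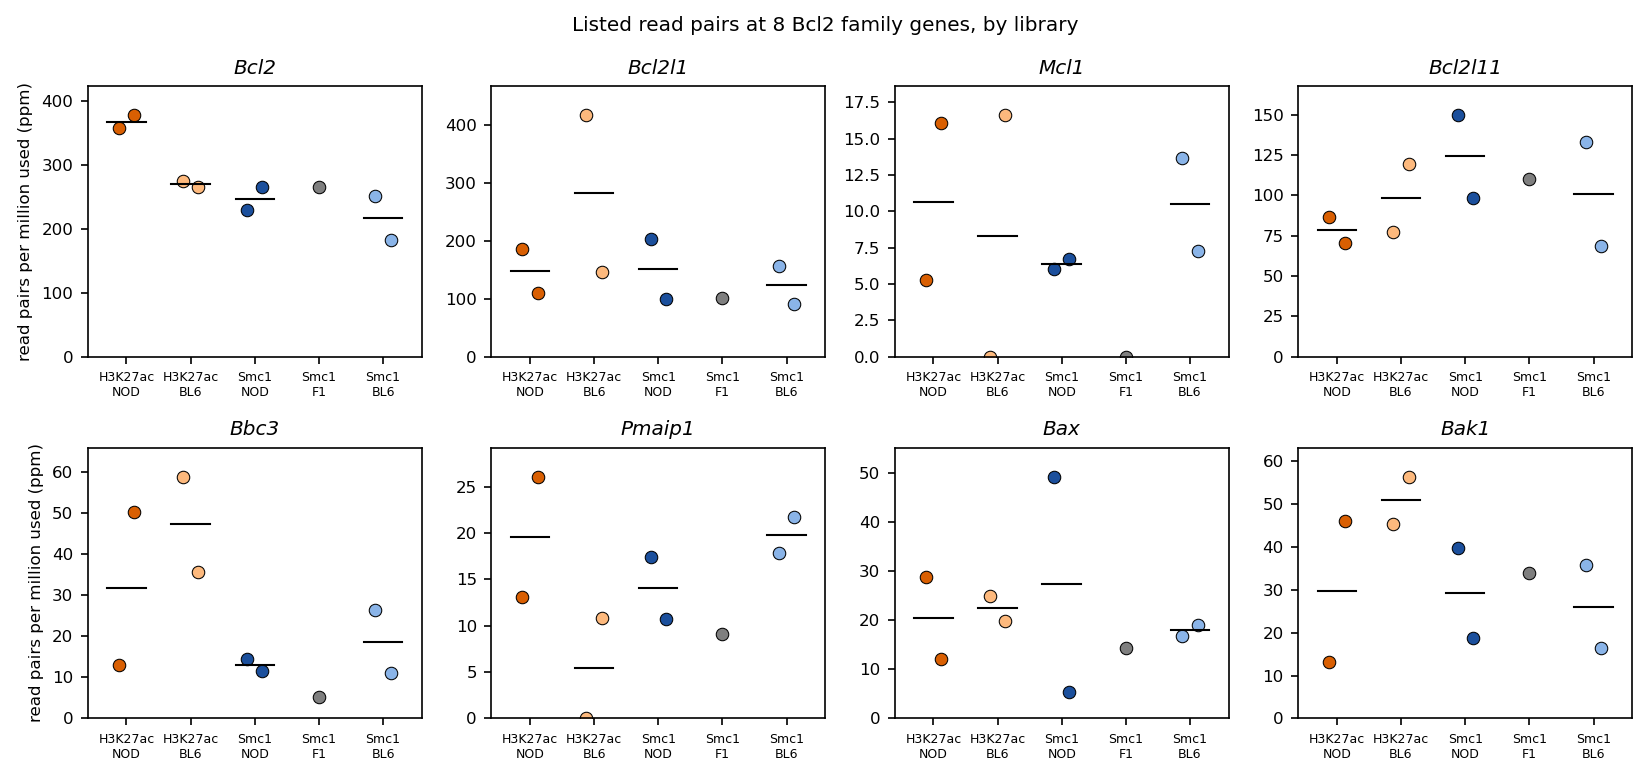
Levels in ppm at each member, 1 point per library, with the F1 library on the BL6 genome and bars at the mean of 2 libraries. Each panel has its own scale from 0, since gene windows differ in length. Bcl2 has its H3K27ac NOD points at 357 and 378 and no Smc1 point above 265.3, while the Bax Smc1 NOD points lie at 49.3 and 5.39.

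Bcl2 (chr1:106538176-106714290, minus strand) has the longest counted window of the 8, at 186 kb. With H3K27ac it had 357 and 378 ppm in NOD 1 and NOD 2, and 274 and 265 in BL6 1 and BL6 2. In Smc1 its level was 230 and 265 in NOD 1 and NOD 2, 265 in F1 on the BL6 genome (251 on the NOD genome), and 252 and 183 in BL6 1 and BL6 2. Both H3K27ac NOD libraries stood above both BL6 libraries, as at 11.2% of the genes tested, whereas the Smc1 strains overlapped. The fitted log2 difference, NOD over BL6, was 0.42 ± 0.48 for H3K27ac (SE, interval -0.72 to 1.57, adjusted p = 1.00, edgeR) and 0.23 ± 0.26 for Smc1 (interval -0.35 to 0.81, adjusted p = 0.999, edgeR).

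The partners of Bcl2 lay mostly towards lower coordinates, beyond the end of the gene, where 60.9% of its H3K27ac and 61.1% of its Smc1 read pairs went. A pair of gene-free 25 kb bins, chr1:106475001-106500000 and chr1:106500001-106525000, was contacted in all 9 libraries. The nearer of them had 8 and 8 read pairs in H3K27ac NOD 1 and 2, 10 and 19 in H3K27ac BL6, 32 and 17 in Smc1 NOD, 8 in F1, and 35 and 37 in Smc1 BL6. On the other side the bin of Kdsr, an enzyme gene of sphingolipid synthesis whose window overlaps that of Bcl2, was contacted in 8 libraries, missing in H3K27ac NOD 2.

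Partner genes of Bcl2 in all 9 libraries were Tnfrsf11a (the receptor RANK), Relch and Zcchc2, all over 500 kb away. Tnfrsf11a, 689 kb from the gene, had 12 and 10 read pairs in H3K27ac NOD, 4 and 16 in H3K27ac BL6, 17 and 29 in Smc1 NOD, 9 in F1, and 15 and 9 in Smc1 BL6. Both Smc1 NOD libraries, technical repeats, stood above both Smc1 BL6 libraries for that partner, an order seen for whole genes at 15.6% of those tested. Relch had 14 and 14 read pairs in Smc1 NOD and 20 and 18 in Smc1 BL6, and Zcchc2 8 and 6 against 20 and 11. Both overlapped between strains in ppm. No such pair of genes was tested. Phlpp1, a phosphatase that acts on Akt, and Pign were partners in 8 libraries. In all, 48 of 103 partner bins of Bcl2 recurred in at least 5 libraries and 5 in all 9, the most of any member, in the longest window.

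**Figure D3:**
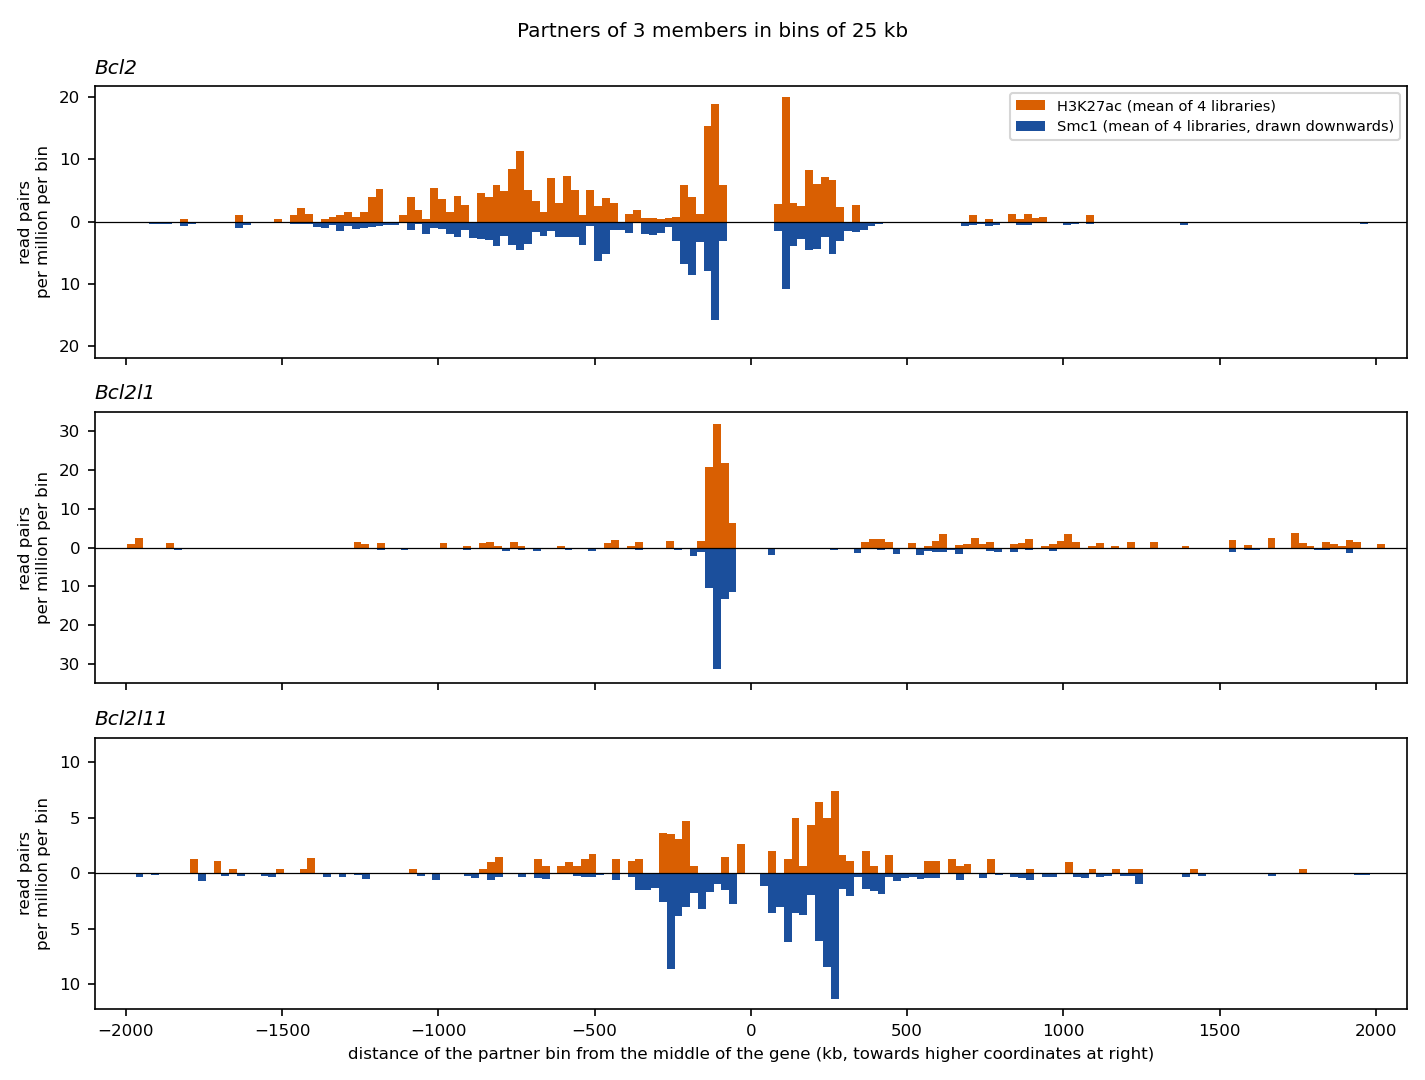
Read pairs in ppm between a member and each 25 kb bin outside its window (vertical axis) against the bin's distance from the middle of the gene in kb, H3K27ac upwards and Smc1 downwards, means of 4 libraries each. Bcl2 has a broad field to the left and a peak on each side of the gene, Bcl2l1 a single block from -134 to -58.8 kb, and Bcl2l11 a block around -257 kb and another around 268 kb.

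Bcl2l1 (chr2:152758732-152833803, minus strand), the BCL-XL gene, had 186 and 110 ppm in H3K27ac NOD 1 and NOD 2, and 417 and 147 in H3K27ac BL6 1 and BL6 2. The Smc1 tables gave 204 and 99.7 in NOD, 102 in F1 on the BL6 genome (124 on the NOD genome), and 157 and 92.0 in BL6. The strains overlapped with either antibody, and the H3K27ac BL6 1 library stood far above the rest. The log2 difference, NOD over BL6, was -0.93 ± 0.69 for H3K27ac (SE, interval -2.60 to 0.74, adjusted p = 1.00, edgeR) and 0.30 ± 0.36 for Smc1 (interval -0.50 to 1.11, adjusted p = 0.999, edgeR).

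Contacts of Bcl2l1 gathered on H13, the gene of the intramembrane protease signal peptide peptidase, 50.1 kb away at lower coordinates, beyond the end of the gene. Its 25 kb bin chr2:152675001-152700000 was a partner in all 9 libraries. Bcl2l1 and H13 shared 4 and 5 read pairs in H3K27ac NOD 1 and NOD 2, and 92 and 49 in H3K27ac BL6 1 and BL6 2. With Smc1 they shared 88 and 52 in NOD, 17 in F1 on the BL6 genome (27 on the NOD genome), and 125 and 72 in BL6. In ppm, H3K27ac gave 10.5 and 10.0 in NOD against 209 and 40.7 in BL6, without overlap, while Smc1 gave 52.9 and 35.0 in NOD against 65.8 and 27.5 in BL6, overlapping. An exact two-sided permutation test over libraries gave p = 0.333 for H3K27ac, the smallest p that 2 against 2 allows, and p = 1 for Smc1. The H13 pair was singled out after its values were seen, and for whole genes 10.2% of those tested had NOD below BL6 in H3K27ac without overlap.

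Mcts2, an imprinted retrogene inside H13, followed in 7 libraries, with Nol4l in 8, Asxl1, a Polycomb-associated chromatin gene, in 7, and Id1, an inhibitor of DNA-binding helix-loop-helix factors, in 6. Within its own window Bcl2l1 placed 32 of 71 and 26 of 55 read pairs in H3K27ac NOD 1 and NOD 2, and 36 of 184 and 12 of 177 in H3K27ac BL6 1 and BL6 2. The gene lying within that window, Cox4i2, shares its counts.

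Mcl1 (chr3:95656944-95663179, plus strand) had the lowest mean level per kb with both antibodies. It had 2 and 8 read pairs in H3K27ac NOD 1 and NOD 2, 0 and 20 in H3K27ac BL6 1 and BL6 2, 10 and 10 in Smc1 NOD, 0 in F1 on both genomes, and 26 and 19 in Smc1 BL6. In ppm these are 5.25 and 16.1, 0 and 16.6, 6.01 and 6.74, 0, and 13.7 and 7.25 in the same order of groups. Both Smc1 NOD libraries were below both BL6 libraries, as at 17.8% of all genes tested, and the log2 difference was -0.66 ± 0.91 (SE, interval -2.67 to 1.35, adjusted p = 0.999, edgeR). In H3K27ac the strains overlapped and the gene did not pass the filter on low counts. Of its 31 partner bins, 28 were listed in a single library. Tars2 and Rprd2 led its partner genes with 3 libraries each, followed by Gabpb2, Setdb1 (a histone H3K9 methyltransferase) and Golph3l with 2.

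Bcl2l11 (chr2:128126038-128162547, plus strand), the BIM gene, had 86.6 and 70.3 ppm in H3K27ac NOD 1 and NOD 2, and 77.1 and 120 in H3K27ac BL6 1 and BL6 2. Smc1 levels were 150 and 98.3 in NOD, 110 in F1 on the BL6 genome (109 on the NOD genome), and 133 and 68.7 in BL6. The strains overlapped with either antibody. The log2 difference, NOD over BL6, was -0.35 ± 0.65 for H3K27ac (SE, interval -1.91 to 1.20, adjusted p = 1.00, edgeR) and 0.33 ± 0.35 for Smc1 (interval -0.45 to 1.10, adjusted p = 0.999, edgeR). Its Smc1 level per kb exceeded that of 97.6% and 93.3% of genes in NOD 1 and NOD 2, 90.5% in F1 and 95.9% and 76.1% in BL6 1 and BL6 2.

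The partners of Bcl2l11 formed a block on each side, at 100 to 500 kb for 61.0% of its H3K27ac and 72.2% of its Smc1 read pairs. The block at higher coordinates, beyond the end of the gene, held no protein-coding gene of the table used. Its bin chr2:128350001-128375000 was contacted in all 9 libraries, chr2:128400001-128425000 in 8, missing in H3K27ac NOD 1, and chr2:128375001-128400000 in 5. The bin in 8 libraries had 0 and 5 read pairs in H3K27ac NOD, 5 and 10 in H3K27ac BL6, 17 and 16 in Smc1 NOD, 13 in F1, and 35 and 15 in Smc1 BL6. The block at lower coordinates lay in Acoxl, whose window overlaps that of Bcl2l11 and shares its counts. Partner genes recurred less: Mertk, a receptor tyrosine kinase for engulfing dead cells, and Atp8b4 in 6 libraries, Kcnip3 in 5, and Spdye4c in 4.

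Bbc3 (chr7:16308398-16318334, plus strand), the PUMA gene, had 13.1 and 50.2 ppm in H3K27ac NOD 1 and NOD 2, and 59.0 and 35.7 in H3K27ac BL6 1 and BL6 2. With Smc1 it had 14.4 and 11.5 in NOD, 5.23 in F1 on the BL6 genome (5.05 on the NOD genome), and 26.3 and 11.1 in BL6. The strains overlapped with either antibody, and 3 of 4 H3K27ac libraries stood above every Smc1 library. The log2 difference, NOD over BL6, was -0.60 ± 0.95 for H3K27ac (SE, interval -2.88 to 1.69, adjusted p = 1.00, edgeR) and -0.49 ± 0.68 for Smc1 (interval -1.98 to 1.01, adjusted p = 0.999, edgeR). The gene Sae1 reaches into the Bbc3 window and shares counts with it. Prkd2, a protein kinase D gene 525 kb away, and Meis3, a homeobox gene 122 kb away, were partners in 5 libraries, and Napa, Dhx34 and Bicra in 4.

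Pmaip1 (chr18:66458604-66465558), the NOXA gene, had 13.1 and 26.1 ppm in H3K27ac NOD 1 and NOD 2, and 0 and 10.8 in H3K27ac BL6 1 and BL6 2. In Smc1 its level was 17.4 and 10.8 in NOD, 9.15 in F1 on the BL6 genome (8.84 on the NOD genome), and 17.9 and 21.8 in BL6. NOD thus stood above BL6 in H3K27ac, an order seen at 11.2% of genes tested there, and below it in Smc1, as at 17.8% of genes, in both cases without overlap. The Smc1 log2 difference was -0.48 ± 0.61 (SE, interval -1.82 to 0.87, adjusted p = 0.999, edgeR), and in H3K27ac the gene did not pass the filter on low counts. The test of whether the strain difference itself differed between antibodies gave 2.07 ± 1.61 (SE, interval -1.58 to 5.72, adjusted p = 1, edgeR). With a single H3K27ac library of BL6 listing it, at 13 read pairs, the contrast rests on few counts, and with no margin around the gene the Smc1 value was 0.51.

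By read pairs summed over 4 libraries, the contacts of Pmaip1 were the longest of the set. Over 500 kb lay 90.3% of 31 H3K27ac and 65.4% of 136 Smc1 read pairs, with median distances of 987 and 733 kb. Single libraries varied: H3K27ac NOD 1 had a median of 35.0 kb from 5 read pairs. Smc1 BL6 2 had 43.9% over 500 kb. Over all contacts used, each counted once, the median distance was 543630 to 807200 bases in the H3K27ac libraries. It was 561590 to 763833 bases in the Smc1 libraries. Nedd4l, a ubiquitin ligase gene 1241 kb away, was a partner in 6 libraries, among them all 4 Smc1 libraries. Gnal, a G protein alpha subunit gene, and Zfp532 were partners in 5, again including all 4 Smc1 libraries. Ldlrad4 and Cplx4 followed with 2 libraries. Of the 54 partner bins, 39 were listed in a single library.

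Bax (chr7:45461695-45466903, minus strand), a pore-forming effector, had 28.9 and 12.1 ppm in H3K27ac NOD 1 and NOD 2, and 24.9 and 19.9 in H3K27ac BL6 1 and BL6 2. The Smc1 tables gave 49.3 and 5.39 in NOD, 14.4 in F1 on the BL6 genome (13.9 on the NOD genome), and 16.8 and 19.1 in BL6. The pair of Smc1 NOD libraries, technical repeats, lay on either side of both BL6 libraries. The log2 difference, NOD over BL6, was -0.14 ± 1.26 for H3K27ac (SE, interval -3.19 to 2.90, adjusted p = 1.00, edgeR). For Smc1 it was 0.58 ± 0.81 (interval -1.24 to 2.40, adjusted p = 0.999, edgeR), and without the NOD 1 library it was -1.60. Its window overlaps those of 3 other genes, Ftl1 among them. Partners recurred in at most 4 libraries: Plekha4, Il4i1b and Nup62, a nuclear pore gene, in 4, and Nucb1 and Tulp2 in 3.

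Bak1 (chr17:27019812-27028627, minus strand), the other effector, had 13.1 and 46.2 ppm in H3K27ac NOD 1 and NOD 2, and 45.4 and 56.5 in H3K27ac BL6 1 and BL6 2. Smc1 levels were 39.7 and 18.9 in NOD, 34.0 in F1 on the BL6 genome (44.2 on the NOD genome), and 35.8 and 16.4 in BL6. The strains overlapped with either antibody. The log2 difference, NOD over BL6, was -0.81 ± 0.91 for H3K27ac (SE, interval -2.99 to 1.38, adjusted p = 1.00, edgeR) and 0.19 ± 0.56 for Smc1 (interval -1.05 to 1.43, adjusted p = 0.999, edgeR). The gene Ggnbp1 reaches into the Bak1 window and shares counts with it. Itpr3, an inositol trisphosphate receptor gene 28.4 kb away, and Grm4 were partners in 5 libraries, Slc26a8 in 4, and Lmf1 and Ilrun in 3. The Itpr3 contact was listed with 0 and 0 read pairs in H3K27ac NOD, 5 and 7 in H3K27ac BL6, 21 and 6 in Smc1 NOD, 0 in F1 on the BL6 genome (4 on the NOD genome), and 19 and 0 in Smc1 BL6.

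**Figure D4:**
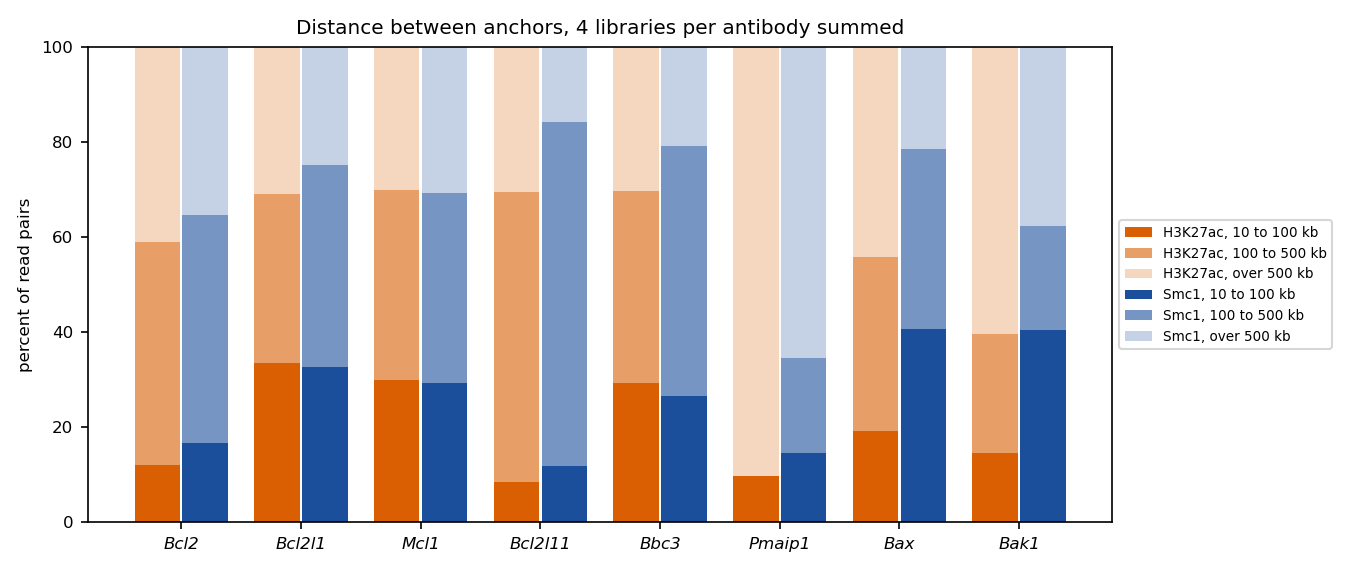
Share of each member's read pairs by distance between anchors, in percent, H3K27ac left and Smc1 right of each pair, with 4 libraries summed per antibody so that deeper libraries weigh more. Over 500 kb lie 90.3% and 65.4% for Pmaip1, against 30.5% and 15.8% for Bcl2l11.

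The comparison of NOD with BL6 called 0 of the 6 members tested in H3K27ac and 0 of the 8 tested in Smc1 at an adjusted p of 0.05 (edgeR quasi-likelihood test). Over all genes it called 0% of 13974 in H3K27ac and 0.188% of 18095 in Smc1. At an unadjusted p under 0.05 it held 0 members in either, with 0.744% and 3.59% of all genes, and DESeq2 called no member either. In no member did both Smc1 NOD libraries stand above both BL6 libraries, as they did at 15.6% of genes. The members' median log2 difference was -0.47 in H3K27ac, with 1 of 6 positive, and 0.21 in Smc1, with 5 of 8 positive. Over all genes the median was 0.00 in each, with 49.6% negative in H3K27ac and 49.9% in Smc1. The intervals leave room for differences of more than 2-fold in either direction at Bbc3, Bax and Bak1 in each antibody. Only Bcl2 in Smc1 had an interval within 2-fold both ways. That interval holds the spread between technical repeats only, so it does not bound the difference between the strains.

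Sums per pair of 25 kb bins, chosen after seeing the data, called 1.51% of 397 pairs for H3K27ac and 0% of 5981 for Smc1 (edgeR, adjusted p under 0.05). Among them 2 and 11 pairs touched a member, and none was called. The 2 in H3K27ac joined bins of the Bcl2l1 window to each other, so no bin pair of Bcl2l1 with H13 was tested in H3K27ac. Between the H13 bin and the bin of the Bcl2l1 start site, chr2:152825001-152850000, Smc1 listed 41 and 17 read pairs in NOD and 67 and 31 in BL6, with a log2 difference of -0.25 ± 0.61 (SE, adjusted p = 1.00, edgeR).

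**Figure D5:**
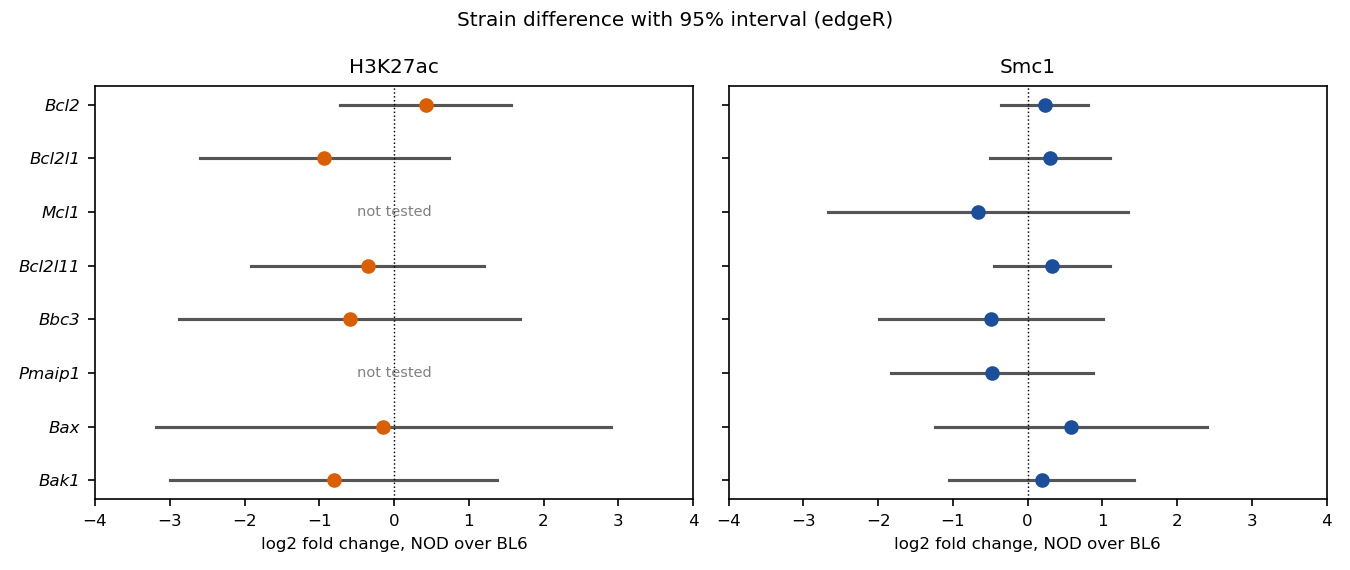
Log2 fold change of NOD over BL6 for each member with its 95% interval, H3K27ac at left and Smc1 at right, from edgeR over 4 libraries each. Every interval crosses 0, and the narrowest is that of Bcl2 in Smc1, from -0.35 to 0.81.

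Between antibodies, over 8 libraries with the strains weighted equally, 0 of 8 members were called, against 1.89% of 18137 genes (edgeR quasi-likelihood test). Bbc3 had the largest positive value, with a log2 difference of H3K27ac over Smc1 of 0.99 ± 0.59 (SE, interval -0.34 to 2.33, adjusted p = 0.464, edgeR). Pmaip1 had the lowest value, at -0.90 ± 0.80 (interval -2.72 to 0.92, adjusted p = 0.648, edgeR). Bcl2l11 had the smallest p among those below 0, at -0.65 ± 0.35 (interval -1.44 to 0.14, adjusted p = 0.421, edgeR). The Bcl2 level in ppm was higher in every H3K27ac library than in every Smc1 library of NOD and BL6, as at 10.2% of genes, but the margin was 264.99 against 264.73 and the scaled difference was 0.12 ± 0.25 (adjusted p = 0.869, edgeR). None of the 8 had the reverse order, seen at 7.83% of genes. The F1 library, at 265.29 ppm on the BL6 genome, lay above that lowest H3K27ac value. No member was called in the interaction of strain and antibody, nor was any of the 18137 genes, of which 1.87% had an unadjusted p under 0.05. Since no gene at all was called in the H3K27ac comparison of strains or in the interaction, the counts of 0 there say nothing about the members. With 0.188% of all genes called between strains in Smc1 and 1.89% between antibodies, 0 of 8 members is near those shares as well.

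The other genes of the pathway were 38 further family members, caspases, their inhibitors and regulators. In H3K27ac 31 were tested, 18 with a positive and 13 with a negative difference of NOD over BL6 (median 0.12), and in Smc1 34, with 19 positive and 15 negative (median 0.07). Over all genes tested, 49.6% were negative in H3K27ac and 49.9% in Smc1. Between antibodies, 23 of 34 were positive and 11 negative (median 0.30), beside a median of -0.08 over all genes, of which 54.2% were negative. None was called in any of these comparisons (edgeR).

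Bmf, a BH3-only gene, had the smallest unadjusted p of the list in Smc1. It had 67.9 and 55.2 ppm in Smc1 NOD, 58.8 in F1 on the BL6 genome, and 30.0 and 20.2 in Smc1 BL6, with no overlap and a log2 difference of 1.33 ± 0.41 (SE, adjusted p = 0.999, edgeR). In H3K27ac it had 60.4 and 52.2 in NOD and 68.0 and 47.3 in BL6, which overlapped. Bcl2l12, a divergent family member, had 9.62 and 8.76 ppm in Smc1 NOD, 13.1 in F1 on the BL6 genome, and 1.05 and 0 in Smc1 BL6. In H3K27ac it had 97.1 and 82.4 in NOD and 0 and 18.3 in BL6, so that NOD stood above BL6 with both antibodies, an order seen at 11.2% of genes in H3K27ac (adjusted p = 1.00 in H3K27ac and 0.999 in Smc1, edgeR). Htra2, a mitochondrial protease gene, had 13.8 and 3.37 in Smc1 NOD, 36.6 in F1, and 24.7 and 24.4 in Smc1 BL6. Birc2, the cIAP1 gene, had 10.2 and 19.5 in Smc1 NOD, 5.23 in F1, and 3.16 and 6.11 in Smc1 BL6. For Htra2 and Birc2 too the Smc1 strains did not overlap. All 4 were taken for their small Smc1 p, which favours such an order, and 15.6% of all genes tested had NOD above BL6 in Smc1 without overlap and 17.8% NOD below it.

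The gene on another chromosome whose level followed a member most closely over the 9 libraries, by Pearson's r on log2(ppm + 5), was Man2b1 for Bcl2 (0.943, then Kmt2e), Amz2 for Bcl2l1 (0.964, then Bloc1s3), Xcl1 for Bcl2l11 (0.862, then Sema4c) and Gab1 for Bbc3 (0.966, then Pgap6). It was Ctcfl for Mcl1 (0.951, then Zfp641), Olfr288 for Pmaip1 (0.965, then Slc38a11), A630076J17Rik for Bax (0.894, then Htr3a) and Gm38457 for Bak1 (0.960, then 4833439L19Rik). Each was the highest of at least 12709 genes over 9 points that share antibody and depth, so high values are found for every member.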

How the data were processed

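The authors deposited, per the file headers, 1 table of interactions per library (2 for F1) with the count of read pairs, the read count of each anchor, a p-value and a q-value. Per the submitters' processing notes the build was GRCm38 and the tools included MACS, HiC-Pro and Juicer 1.7.6, without saying what each did. As checked on the values, no listed interaction had under 2 read pairs or a q-value over 0.05. Missing pairs counted as 0 in sums and fits.

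Read pairs were summed per gene (GRCm38.p6) with Python 3.11.15 and pandas 2.3.3. edgeR 4.0.16 in R 4.3.3 (quasi-likelihood test, TMM, robust, default filter on low counts, Benjamini-Hochberg over all genes tested) compared NOD with BL6 within each antibody, H3K27ac with Smc1 over both strains, and their interaction. Intervals are 95% and come from the fit. DESeq2 1.42.0 was an alternative. Fits were tested on simulated data, where those of strain in H3K27ac and of the interaction called no gene, changed ones included. Overlapping genes share counts, and strand does not enter. The 25 kb bin-pair fits were added after seeing the data. The rule for the members uses no measured value, but members and lists were proposed with earlier results of these data known.

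Named were the members, up to 5 partner genes and 3 partner bins each (by number of libraries for genes and mean level for bins), the 2 most alike genes, and the 4 pathway genes with the smallest Smc1 p. A partner gene that this rule picks is not reported here. The 9 libraries were grouped by the antibody and strain fields. The F1 library had no replicate and no test.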

Additional observations from a re-analysis of the deposited data

Results flagged for a closer look

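At Pmaip1 both NOD libraries stood above both BL6 libraries in H3K27ac and below both in Smc1, orders seen at 11.2% and 17.8% of genes tested. It had 13.1 and 26.1 ppm in H3K27ac NOD against 0 and 10.8 in H3K27ac BL6, and 17.4 and 10.8 in Smc1 NOD against 17.9 and 21.8 in Smc1 BL6. The difference between the strain differences was 2.07 ± 1.61 on the log2 scale (SE, adjusted p = 1, edgeR), so it did not pass the test. With no margin around the gene the Smc1 log2 difference was 0.51, against -0.48 with it.

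Contacts under 10 kb, left out of all sums above, were higher in the F1 library than in either Smc1 BL6 library at 2 members. Bcl2 had 20.9 ppm in F1 on the BL6 genome, from 16 read pairs, against 10.0 and 6.49 in Smc1 BL6, from 19 and 17. Bcl2l1 had 11.8 in F1 on the BL6 genome, from 9 read pairs, against 5.79 and 0 in Smc1 BL6, from 11 and 0. Unscaled, F1 was thus the lowest of these libraries at Bcl2 and lay between them at Bcl2l1. F1 is a single library, and neither difference was tested.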

How the results depend on the processing

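No member was called under any of the alternatives run, and the smallest adjusted p was 0.0882 (0.140 when a library was left out). Of 433 member results, 400 kept their direction and 33 reversed. The number of genes called for Smc1 was 34. It was 15 with at least 3 read pairs, 14 with no margin, 17 around both gene ends, 3 around start sites, 50 with the replicate block, 45 with DESeq2, and 0 to 805 without a library (7 without BL6 1, 0 without BL6 2, 805 without NOD 1). For H3K27ac it was 0, and 4 with no filter, 33 with the replicate block, 18 with DESeq2, and 0 to 63 without a library (63 without NOD 2). Between antibodies it was 343, and 99 with at least 3 read pairs, 0 around both gene ends, 0 around start sites, 3337 with the replicate block, 1326 with DESeq2, and 39 to 569 without a library. The causes were not tested. Same-numbered libraries deviated together (r = 0.586 in H3K27ac, 0.257 in Smc1, across genes), but 2 pairs do not show that the numbers pair them. H3K27ac levels correlated more between same-numbered libraries of the 2 strains (r = 0.740 and 0.813) than within BL6 (0.548) or NOD (0.488). In Smc1 these were 0.892 and 0.862 against 0.905 and 0.845. Member differences and intervals given above come from the fits without the replicate block.

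Reversed log2 differences were, for Smc1, Pmaip1 0.51 with no margin, and Bcl2 -0.034 and Bcl2l1 -0.076 around start sites. Between antibodies they were Mcl1 0.47 and Bak1 -0.25 with at least 3 read pairs, Bcl2l1 -0.43 around both gene ends and -0.64 around start sites, and Bak1 -0.079 around start sites and -0.75 with the replicate block. Without a library, Smc1 values ranged from -0.18 to 0.72 for Bcl2l1, -0.98 to 0.24 for Bbc3, -0.068 to 0.86 for Bcl2l11, -0.32 to 0.83 for Bak1 and -1.60 to 1.40 for Bax. H3K27ac values ranged from -0.95 to 0.38 for Bax, -0.63 to 0.011 for Bcl2l11 and -1.81 to 0.029 for Bbc3. Antibody differences ranged from -3.20 to 0.40 for Mcl1, -0.37 to 0.54 for Bak1, -0.20 to 0.55 for Bcl2l1 and -0.72 to 0.75 for Bax. Interactions ranged from -0.059 to 0.36 for Bcl2, -1.34 to 0.50 for Bbc3, -1.57 to 1.45 for Bax and -0.14 to 7.19 for Mcl1. Of 47 level ratios, 43 stayed within the replicate SD.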
